A study of Mus musculus with 4 samples.

Results

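The 9 genes described here act in iron uptake, storage, export, sensing and release from heme: Tfrc, Steap3, Slc11a2, Fth1, Ftl1, Slc40a1, Aco1, Ireb2 and Hmox1. They were chosen by name and found by matching Ensembl identifiers to mouse gene symbols, 9 of the 50686 gene identifiers in the count tables. Of the 9 members, 8 passed the filter on low counts, as did 15394 genes in all, and Slc40a1 did not pass. RNA was sequenced from cultured mouse cells that came from spleen and lymph node, wild type (WT) or labelled Yap KO, each unstimulated and stimulated, with 1 library for each of the 4 groups. The sources used here do not give the stimulus, the cell type, the strain, the age and number of animals or how Yap was deleted. Only the stimulated titles hold a number (24, without a unit), so time in culture and stimulus cannot be told apart, nor can genotype and cell source.

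Cells take up iron mostly as transferrin bound to the transferrin receptor, reduce it inside endosomes and carry it to the cytosol, where ferritin stores what is not used. Iron regulatory proteins bind a short RNA hairpin, the iron-responsive element, when iron is scarce. Bound in the 5′ untranslated region (UTR) of ferritin or ferroportin mRNA it blocks translation, and bound in the 3′ UTR of transferrin receptor mRNA it protects the transcript from decay. Dividing lymphocytes need iron for DNA synthesis and respiration, and the transferrin receptor is a classical surface marker of activated T cells.

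The hairpins are shown because they divide the members in which they were found into those held back and those stabilised by the same proteins. GENCODE M21 transcripts (GRCm38) were searched on the sense strand for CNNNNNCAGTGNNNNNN, with the 5 bases before the CAGTGN loop able to pair with the 5 after it (G-T pairs allowed). The search ran over the UTRs of every protein-coding gene. In the 27-base windows the capitals mark the bulged C and the CAGTG of the loop.
Tfrc 3′ UTR, hairpin 1: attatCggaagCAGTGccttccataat
Tfrc 3′ UTR, hairpin 2: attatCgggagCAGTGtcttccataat
Tfrc 3′ UTR, hairpin 3: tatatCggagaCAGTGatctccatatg
Tfrc 3′ UTR, hairpin 4: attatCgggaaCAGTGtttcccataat
Fth1 5′ UTR: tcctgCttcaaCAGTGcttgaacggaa
Ftl1 5′ UTR: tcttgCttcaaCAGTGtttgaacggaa
Slc40a1 5′ UTR: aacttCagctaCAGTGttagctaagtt

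A match was present in the 5′ UTR of 30 of 20916 protein-coding genes (0.143%) and in the 3′ UTR of 128 of 21707 (0.590%). Tfrc was the only gene with 2 or more different matches in its 3′ UTR, at bases 3316 to 3833 of transcript Tfrc-201. The Fth1 and Ftl1 windows differed by the substitutions C3T and C17T, counted from 1 at the 5′ end with the Fth1 base first. The other 5 members had no match of these letters in a UTR. A hairpin with another loop or an extra bulge would have been missed. The search therefore does not show that these members lack an iron-responsive element.

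Reads in genes numbered 19935523 to 25419974 per library. Yap1 had 1 and 3 reads in WT and 0 and 2 in Yap KO cells (unstimulated, then stimulated), so the genotype label could not be checked from it. Levels are given as CPM, read counts divided by the TMM-scaled library size. T cell markers were abundant, with summed levels of 6286 and 2423 CPM in WT and 6773 and 2188 CPM in Yap KO (unstimulated, then stimulated). Among them Cd8a stood at 252 to 821 CPM and Cd8b1 at 269 to 1512 CPM, whereas Cd4 had at most 3 reads. B cell markers summed to 12.4 to 65.0 CPM, macrophage and monocyte markers to 18.7 to 36.7 CPM and erythroid markers to 0.829 to 5.50 CPM. With 1 library per group, intervals cover counting error only. The p-values come from an additive fit of genotype and state in edgeR, with 1 residual degree of freedom. They test the state change common to both genotypes, or the genotype difference common to both states, against no change. They do not test whether the genotypes responded alike. They say nothing of the spread between cultures or animals.

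The first comparison asked how the iron genes differed between unstimulated and stimulated cells. The transferrin receptor gene Tfrc rose more than 10-fold in both genotypes and the heme oxygenase gene Hmox1 rose from a low level, while the ferritin genes Fth1 and Ftl1 and the iron transporter gene Slc11a2 fell. Of the iron regulatory proteins, Aco1 rose and Ireb2 was not called. In edgeR's quasi-likelihood test with Benjamini-Hochberg adjustment over all genes, 3 of the 8 tested members were called higher and 3 lower, against 33.3% of all tested genes higher, 34.1% lower and 67.4% either way. These shares are close to the background and are not a result about the members. By size alone, 2 of the 8 were at least 2-fold higher in WT (23.8% of tested genes) and 0 at least 2-fold lower (24.5%), and in Yap KO these were 3 (22.7%) and 1 (25.9%). The median log2 change was 0.11 over the 8 tested members and -0.05 over all tested genes.

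**Figure D1:**
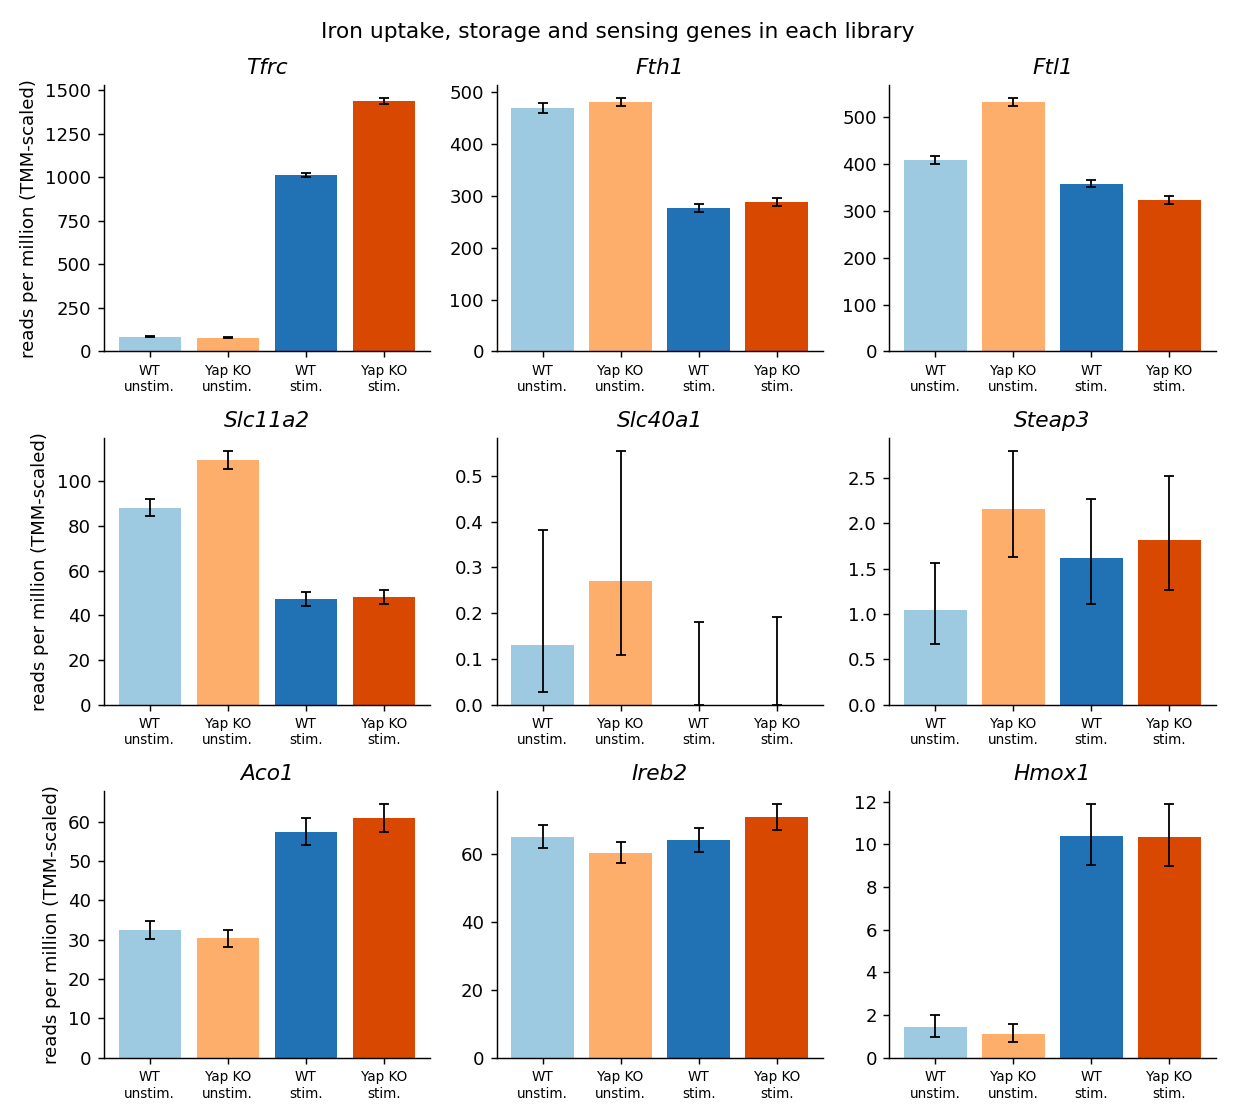
Level of each of the 9 members in the 4 libraries, as TMM-scaled CPM on axes that start at 0. Bars are single libraries and error bars are exact 95% Poisson intervals. Tfrc and Hmox1 are high in both stimulated libraries, Fth1 and Slc11a2 are high in both unstimulated ones, and Slc40a1 has no reads after stimulation.

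Tfrc encodes transferrin receptor 1, which carries iron-loaded transferrin into the cell, and lies on chromosome 16 from 32608920 to 32632794 (GRCm38). WT cells went from 84.7 CPM unstimulated to 1012 CPM stimulated, and Yap KO cells from 78.3 to 1439.6 CPM. Both stimulated libraries lay far above both unstimulated ones. The rise was 11.96-fold in WT (log2 3.58, exact 95% interval 3.51 to 3.65) and 18.4-fold in Yap KO (4.20, 4.13 to 4.27). The additive fit gave a log2 change of 3.89 ± 0.18 (SE, edgeR adjusted p = 2.18e-07), and 3.59% of tested genes had a higher value. Per length of exons, Tfrc moved from rank 4104 of 15394 tested genes to rank 285 with stimulation in WT, and from 4477 to 191 in Yap KO.

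Steap3 encodes the endosomal ferrireductase that reduces iron released from transferrin, and lies on chromosome 1 from 120190757 to 120272705. It was scarcely read, with 24 unstimulated and 33 stimulated reads in WT (1.05 and 1.62 CPM) and 56 and 35 in Yap KO (2.16 and 1.81 CPM). The states overlap. The log2 change with state was 0.12 ± 0.40 (edgeR adjusted p = 0.806). A change of either sign was not detectable at this depth, with exact 95% intervals of -0.18 to 1.45 in WT and -0.90 to 0.38 in Yap KO.

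Slc11a2 encodes the divalent metal transporter DMT1, which moves ferrous iron across the endosomal membrane, and lies on chromosome 15 from 100387898 to 100425072. It went from 88.0 to 47.2 CPM with stimulation in WT and from 109 to 48.0 CPM in Yap KO. Both unstimulated libraries were above both stimulated ones. The fall was 1.86-fold in WT and 2.28-fold in Yap KO, with a log2 change of -1.04 ± 0.14 (edgeR adjusted p = 1.25e-04). Of its exon bases 6.33% lie opposite Gm5475, which had 8 to 49 reads per library against 926 to 2844 for Slc11a2.

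Of the genes that bring iron into the cytosol, the receptor and the transporter thus moved in opposite directions. Per Slc11a2 read, Tfrc went from 0.962 to 21.5 reads in WT and from 0.716 to 30.0 reads in Yap KO. A ratio between genes within a library does not depend on how libraries are scaled, but it does depend on gene length, so its change between libraries is what can be read. That change was 22.3-fold in WT and 41.9-fold in Yap KO.

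Fth1 encodes the ferritin heavy chain, which oxidises iron as it enters the storage shell, and lies on chromosome 19 from 9980598 to 9985098. Its level went from 470.1 to 276 CPM with stimulation in WT and from 482 to 288 CPM in Yap KO. The states did not overlap, and the fall was of similar size in both genotypes, 1.70-fold and 1.67-fold. The log2 change was -0.75 ± 0.12 (edgeR adjusted p = 4.16e-04).

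Ftl1 encodes the ferritin light chain, which helps iron form a mineral core, and lies on chromosome 7 from 45457944 to 45459884. WT cells had 407 CPM unstimulated and 358 CPM stimulated, and Yap KO cells 532 and 322 CPM. Both stimulated libraries were lower, by 1.14-fold in WT and 1.65-fold in Yap KO, and the Yap KO unstimulated library stood above the rest. The log2 change was -0.46 ± 0.15 (edgeR adjusted p = 0.0225), the weakest of the 6 called members. With 3 of the 4 libraries and state as the only term, the call was lost without Yap KO unstimulated (log2 -0.27, adjusted p = 0.176), without WT stimulated (-0.53, adjusted p = 0.0757) and without Yap KO stimulated (-0.40, adjusted p = 0.144).

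Ftl1 also shares sequence with copies elsewhere. Of its 31-mers 64.1% occur in another gene, chiefly pseudogenes, against 3.24% for Fth1 and none for Tfrc, and reads that align in more than 1 place are not counted. The pseudogene Ftl1-ps1 had 71 to 109 reads per library, against 6216 to 13814 for Ftl1. Of its exon bases 26.5% lie opposite Gm10252, which went from 3031 to 2315 reads with stimulation in WT and from 4019 to 1974 in Yap KO. The sources used here do not say whether reads were counted by strand, so reads of this pair cannot be told apart.

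Uptake against storage shifted by a like order. Per Fth1 read, Tfrc went from 0.180 to 3.66 reads in WT and from 0.163 to 4.99 in Yap KO. The ratio was 20.3-fold and 30.7-fold higher after stimulation, and against Ftl1 it was 13.6-fold and 30.4-fold higher. As TPM, read density per length of all exons scaled to the same total in each library, Fth1 exceeded Tfrc 9.90-fold in WT and 10.96-fold in Yap KO unstimulated cells, and in stimulated cells Tfrc exceeded Fth1 2.05-fold and 2.80-fold. With the length of the longest principal transcript, chosen as an alternative after the data were seen, these 4 ratios became 18.2, 20.1, 1.12 and 1.52. Ftl1 stayed above Tfrc per length in all 4 libraries, by 22.2-fold and 31.3-fold unstimulated and by 1.63-fold and 1.03-fold stimulated. Between the ferritin chains, Fth1 reads per Ftl1 read were 1.15 and 0.906 unstimulated and 0.773 and 0.896 stimulated in WT and Yap KO, so only WT moved beyond its counting interval.

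**Figure D2:**
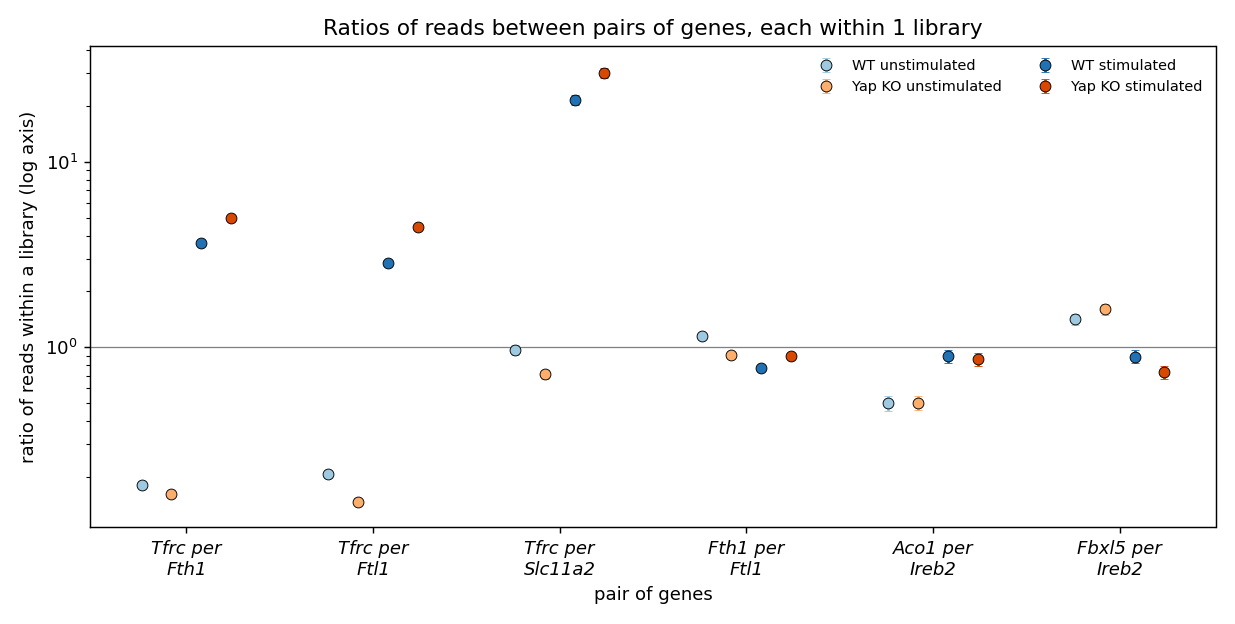
Ratio of reads between pairs of genes within each library, on a log axis, with exact 95% intervals where they exceed the marker. Ratios are not corrected for gene length. Tfrc per ferritin or Slc11a2 read is above 1 in stimulated and below 1 in unstimulated cells, while Fth1 per Ftl1 lies between 0.773 and 1.15.

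Slc40a1 encodes ferroportin, the only known cellular exporter of iron, which macrophages of the spleen express strongly. It lies on chromosome 1 from 45908068 to 45926523. It had 3 unstimulated reads in WT, 7 in Yap KO and 0 in both stimulated libraries, where 0 reads allow up to 0.147 CPM for WT and 0.155 for Yap KO (3 counts per library). The WT unstimulated count is at that floor, so no fold is given for WT. In Yap KO the level was at least 1.73-fold lower in stimulated cells if 7 is taken without error, and the exact 95% interval of the log2 ratio, which includes that error, reaches up to -0.10. Of 15 macrophage and monocyte markers, 4 were at 0 reads in WT unstimulated and 8 in WT stimulated cells, and 2 and 9 in Yap KO. Adgre1, a surface antigen of macrophages, had 1 and 7 unstimulated reads and none after stimulation. The 15 markers summed to 29.3 and 18.7 CPM in WT and to 36.7 and 24.96 CPM in Yap KO. Csf1r, with exons partly opposite another gene, made up 14.2 and 20.5 CPM of the stimulated sums. Without it, a choice made after its values were seen, the other 14 went from 13.5 to 4.41 CPM in WT and from 19.9 to 4.45 CPM in Yap KO. Lyz2, the lysozyme of myeloid cells, fell from 136 to 6 and from 238 to 1 reads. Cd68 was not called (log2 -0.33 ± 0.30, edgeR adjusted p = 0.349) and held 3.48 and 3.06 CPM of the stimulated sums without Csf1r. Cd14 had 2 reads in each WT library and went from 1 to 10 reads in Yap KO. Of the 6 tested markers 4 were called lower (34.1% of all tested genes) and 2 were not called. Their median log2 ratios were -2.23 in WT and -2.36 in Yap KO. The part of these markers in the Slc40a1 reads was not tested. In bulk RNA, fewer cells of a type and less RNA per cell cannot be told apart.

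Aco1 encodes iron regulatory protein 1, which is a cytosolic aconitase when it holds an iron-sulphur cluster and binds the hairpins shown above when it does not. It lies on chromosome 4 from 40143081 to 40198338. Its level went from 32.4 to 57.4 CPM with stimulation in WT and from 30.3 to 60.9 CPM in Yap KO. The states did not overlap. Aco1 rose 1.77-fold in WT and 2.01-fold in Yap KO, with a log2 change of 0.92 ± 0.14 (edgeR adjusted p = 3.58e-04).

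Ireb2 encodes iron regulatory protein 2, whose amount is set by degradation when iron is plentiful, and lies on chromosome 9 from 54863789 to 54912530. It stood at 65.0 and 64.1 CPM in WT and at 60.4 and 70.9 CPM in Yap KO, unstimulated first. These 4 values were the closest together of any member with more than 100 reads per library, and the states overlap. The log2 change was 0.11 ± 0.13 (edgeR adjusted p = 0.509). Aco1 reads per Ireb2 read went from 0.498 in WT and 0.502 in Yap KO to 0.895 and 0.860, a shift of 1.80-fold and 1.71-fold. Per length of all exons, Ireb2 and Aco1 were near equal in unstimulated cells (Ireb2 over Aco1 0.952 in WT and 0.944 in Yap KO), and Aco1 was 1.89-fold above Ireb2 in WT and 1.81-fold in Yap KO stimulated cells. With principal transcript lengths, Ireb2 was 1.33-fold above Aco1 in WT unstimulated cells and Aco1 1.35-fold above Ireb2 in WT stimulated ones.

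Hmox1 encodes heme oxygenase 1, the inducible enzyme that frees iron from heme, and lies on chromosome 8 from 75093621 to 75100589. WT cells had 33 reads unstimulated and 212 stimulated (1.44 and 10.4 CPM), and Yap KO cells 29 and 200 (1.12 and 10.4 CPM). The states did not overlap and the stimulated genotypes were level. The rise in CPM was 7.21-fold in WT and 9.28-fold in Yap KO. The log2 ratios, which a prior count of 2 brings closer to 0 at such low counts, were 2.77 (exact 95% interval 2.32 to 3.43) and 3.11 (2.65 to 3.83). The additive fit gave 3.02 ± 0.29 (edgeR adjusted p = 1.89e-05), and 5.35% of tested genes had a higher value. Per read of Hmox2, its constitutive relative with exons partly opposite another gene, the Hmox1 reads of stimulated cells exceeded those of unstimulated ones 3.83-fold (WT) and 6.11-fold (Yap KO). Macrophages also express Hmox1, and the part of the macrophage markers described with Slc40a1 in its level was not tested.

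**Figure D3:**
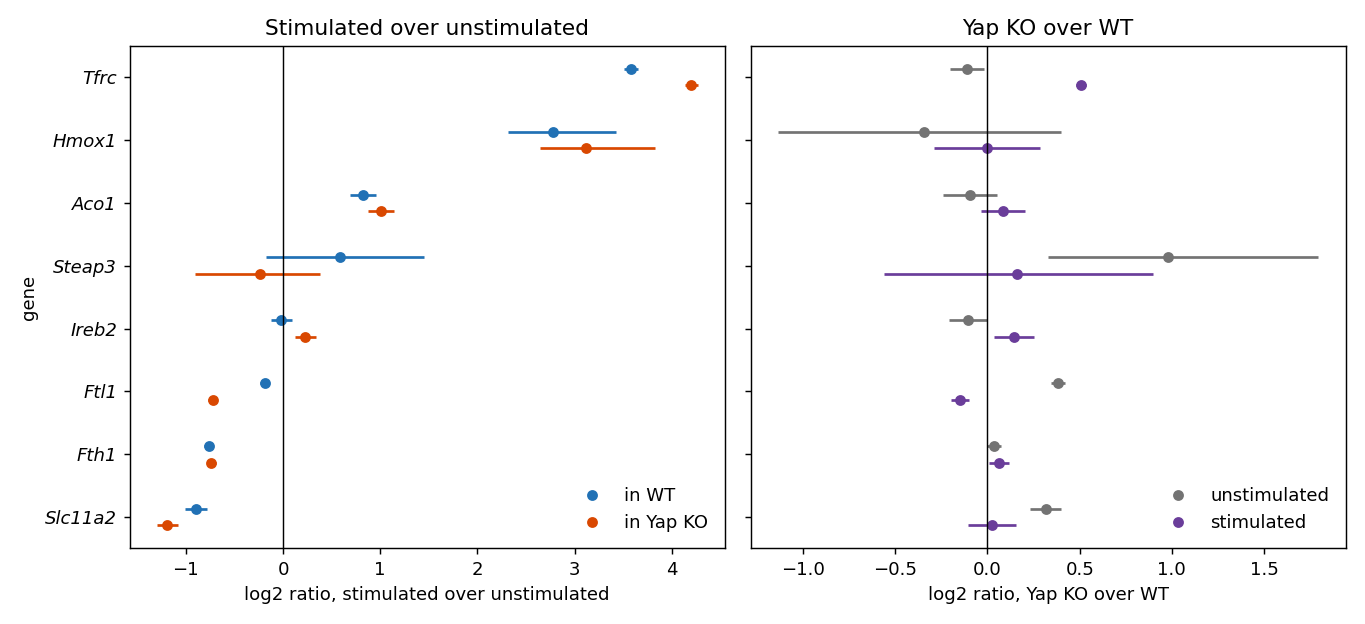
Log2 ratios of the 8 tested members, stimulated over unstimulated within each genotype (left) and Yap KO over WT within each state (right), with a prior count of 2. Points are ratios of single libraries and lines are exact 95% intervals of counting error. Points run from -1.19 to 4.20 on the left and from -0.34 to 0.98 on the right.

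The second comparison asked how the iron genes differed between Yap KO and WT cells. No member differed by 2-fold in the same direction in both states. The exact 95% interval left out no difference in both states for Tfrc, Ftl1 and Ireb2, each with opposite signs, and in 1 state for Fth1, Slc11a2 and Steap3. In edgeR's quasi-likelihood test of genotype 0 of the 8 tested members were called, against 1.4% of all tested genes, and 0 had an unadjusted p under 0.05. DESeq2 called 0 as well. By the size rule (at least 2-fold the same way in both states, both exact 95% intervals excluding no difference) 0 members were counted, against 1.84% of tested genes (0.955% higher, 0.883% lower). These values compare 2 cell sources and not animals. A p that misses the threshold does not show that the genotypes were alike.

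Tfrc was 1.42-fold higher in Yap KO than in WT stimulated cells (log2 0.51, exact 95% interval 0.48 to 0.53) and slightly lower in unstimulated cells (-0.11, -0.20 to -0.02). The response of Tfrc was therefore larger in Yap KO by 0.62 on the log2 scale (95% interval 0.53 to 0.71, counting error). The additive genotype coefficient was 0.20 ± 0.16 (edgeR adjusted p = 0.706).

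Ftl1 was higher in Yap KO unstimulated cells, by 0.38 on the log2 scale (0.35 to 0.42), and lower in stimulated ones, at -0.15 (-0.20 to -0.10). Slc11a2 was 1.24-fold higher in Yap KO unstimulated cells (log2 0.32, 0.23 to 0.40) and within counting error of WT in stimulated cells (0.02, -0.11 to 0.15). Fth1 differed little, with log2 ratios of 0.03 (-0.00 to 0.07) and 0.06 (0.01 to 0.11). The heavy and light ferritin chains thus differed by genotype to unequal degrees in unstimulated cells.

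Within a state, 0 of the 8 members had a log2 ratio, with the prior count of 2, of 1 or more in either direction. Of all tested genes, 4.74% were that much higher and 3.62% lower in Yap KO unstimulated cells, and 4.11% and 5.69% in stimulated cells. Steap3 came nearest, with a log2 ratio of 0.98 in unstimulated cells (0.33 to 1.80), from 24 reads in WT and 56 in Yap KO. Its CPM there, without the prior count, was 2.06-fold higher in Yap KO, so its place under the limit depends on the prior count. In stimulated cells the log2 ratio of Steap3 was 0.16 (-0.56 to 0.90), and its genotype coefficient of 0.61 ± 0.40 was not called (edgeR adjusted p = 0.633). Aco1 had ratios of -0.09 (-0.24 to 0.05) and 0.08 (-0.03 to 0.20), and Hmox1 had -0.34 (-1.14 to 0.40) and -0.00 (-0.29 to 0.28). For Ireb2 they were -0.11 (-0.21 to -0.00) and 0.14 (0.03 to 0.25).

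No tested member had stimulation responses that differed by 2-fold or more between the genotypes, against 7.74% of tested genes. Among the tested members the largest log2 differences in response were those of Steap3, at -0.82 (-1.77 to 0.12), Tfrc, at 0.62, and Ftl1, at -0.54 (-0.60 to -0.47). Sums of further marker lists also differed between the genotypes. B cell markers summed to 36.8 CPM in WT against 65.0 CPM in Yap KO unstimulated cells and to 12.4 against 26.1 CPM in stimulated cells, with 3 of 6 tested markers higher in Yap KO by the size rule and none of the 8 listed at 0 reads. Dendritic cell markers summed to 15.2 against 38.8 CPM and to 15.2 against 32.5 CPM in the same order. Of these 7 markers 3 were at 0 reads in each stimulated library. Itgax, higher by the size rule, held 6.28 against 23.4 CPM of the unstimulated sums. Zbtb46, which rose with stimulation, held 12.5 against 23.5 CPM of the stimulated sums. Xcr1 went the other way in stimulated cells, with 29 reads in WT and 21 in Yap KO. NK cell markers summed to 669 against 1064 CPM and to 373 against 531 CPM, with 0 of 4 tested called by genotype. Nkg7 alone held 612 against 930 CPM of the unstimulated sums and 317 against 458 CPM of the stimulated ones. Eomes held 51.7 against 115 CPM and 54.5 against 71.6 CPM in the same order. Ncr1 had 2 against 15 reads unstimulated and 0 against 1 stimulated, and Klrb1c 50 against 75 and 1 against 0. In stimulated cells 2 and 1 of the 6 listed were at 0 reads in WT and Yap KO. The NK receptor gene Klre1 had 75 reads in WT and 350 in Yap KO unstimulated cells. The part of these markers in the differences of Ftl1, Slc11a2 and Steap3 was not tested.

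Other genes of iron and heme metabolism were read from 8 lists of 97 further genes, of which 72 passed the filter. With state 44 of the 72 were called higher (33.3% of all tested genes), 12 lower (34.1%) and 16 not called, and the median log2 change was 0.64 against -0.05 over all tested genes. None was called by genotype, with 0 also by the size rule. The counts of single lists stand against the same shares of all genes.

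**Figure D4:**
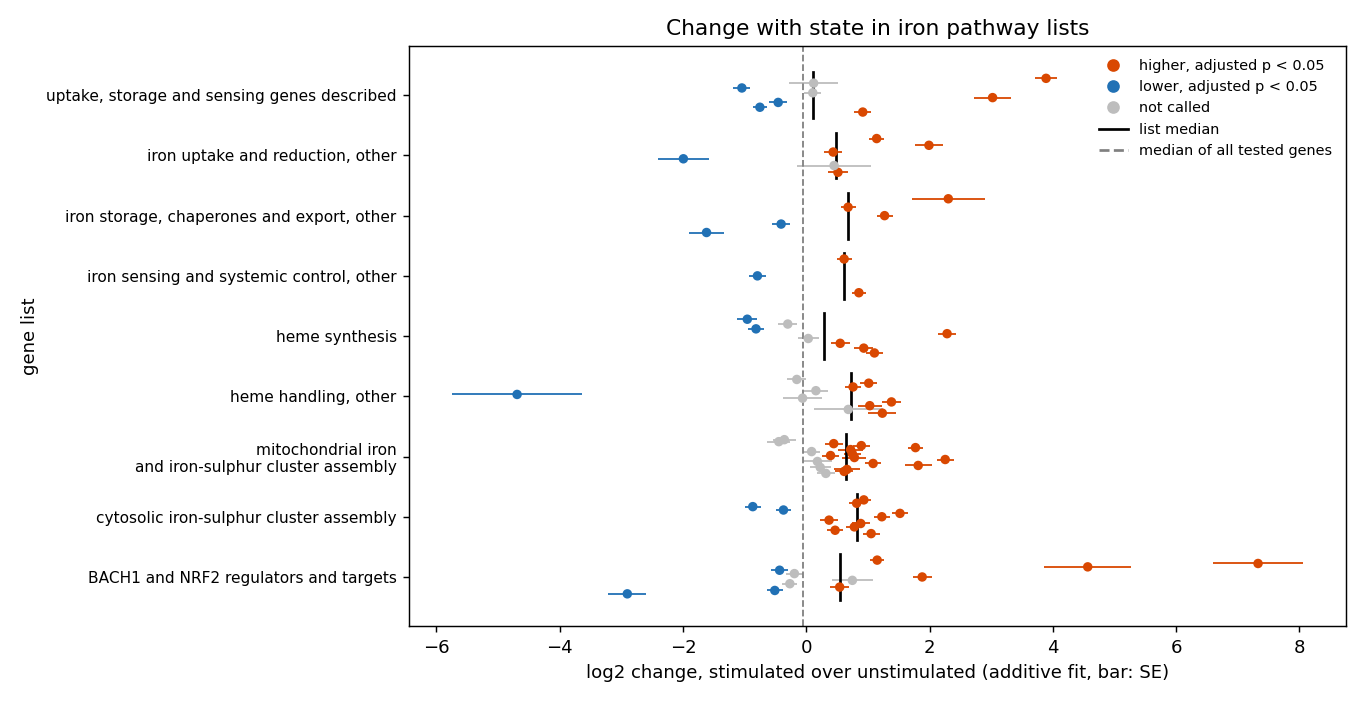
Log2 change with state from the additive fit for each tested gene of the members and of 8 further lists, with its SE, coloured by the edgeR call. Black bars are list medians and the dashed line is the median of all tested genes, -0.05. The fitted values of Srxn1, Slc7a11 and Cd163, which had 0 reads in at least 1 library, depend on the prior count.

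Genes of iron-sulphur cluster assembly were mostly higher in stimulated cells. Of 18 tested mitochondrial genes 12 rose and none fell, with a median of 0.64. Hspa9, the mitochondrial chaperone of cluster transfer, went from 308 to 1581 CPM in WT and from 369 to 1639.6 CPM in Yap KO. Ndufab1, the mitochondrial acyl carrier protein, rose by 1.77 ± 0.12 on the log2 scale (edgeR adjusted p = 2.33e-06), with exons opposite another gene. The mitochondrial iron importers Slc25a37 and Slc25a28 were not called, at -0.36 ± 0.18 (with exons partly opposite another gene) and -0.45 ± 0.19.

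Of 11 cytosolic cluster assembly genes 9 rose and 2 fell, with a median of 0.82. Glrx3, a glutaredoxin that carries clusters, rose by 1.52 ± 0.13, and its partner Bola2 by 1.05 ± 0.14. Ciapin1, of the electron transfer chain for cluster assembly, rose by 1.23 ± 0.13. The exons of Ciapin1 and Bola2 lie partly opposite another gene. The genes that fell were Mms19, which delivers clusters to DNA enzymes, and Ndor1, the electron donor to Ciapin1, and both lie partly opposite another gene.

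Heme synthesis was divided, with 4 of 8 tested genes higher, 2 lower and a median of 0.29. Alad, an early enzyme of the pathway, rose by 1.11 ± 0.14 on the log2 scale. Uros, uroporphyrinogen III synthase, fell by 0.96 (SE 0.16), and Ppox also fell, with exons partly opposite another gene. Fech, which inserts iron into heme, was not called (0.03 ± 0.17).

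In heme handling 5 of 10 tested genes rose and 1 fell, with a median of 0.72. Blvra, biliverdin reductase A, which acts on the product of heme oxygenase, rose by 1.38 ± 0.15, and Abcb10, a mitochondrial transporter opposite another gene, by 1.23 ± 0.23. Cd163, the macrophage scavenger receptor for haemoglobin, was called lower, with 16 unstimulated reads and 1 stimulated in WT and 23 and 0 in Yap KO. Cd163 is also among the macrophage markers whose sums are given above.

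Among other uptake genes 4 of 6 tested rose and 1 fell (median 0.48). Slc39a8, a zinc and iron importer, rose by 1.99 ± 0.23 and Snx3, a sorting protein that recycles the transferrin receptor, by 1.14 ± 0.12. Slc22a17, a receptor for lipocalin-bound iron, fell from 53 to 15 reads in WT and from 99 to 15 in Yap KO. Tfr2 and Trf, the second transferrin receptor and transferrin itself, had at most 2 reads.

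Among storage, chaperone and export genes 3 of 5 tested rose and 2 fell (median 0.68). Pcbp1, which delivers iron to ferritin, rose from 239 to 632 CPM in WT and from 268 to 590.0 CPM in Yap KO, in the opposite direction to Fth1 and Ftl1, with a small part of its exons opposite another gene. Prnp, the prion protein, was called higher from 4 to 77 reads in WT and from 26 to 44 in Yap KO. Cp, the ferroxidase ceruloplasmin, fell by 1.62 on the log2 scale (SE 0.28), with exons partly opposite another gene. Ncoa4, the receptor that takes ferritin to the lysosome, fell by 0.41 (SE 0.14).

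Of the sensing genes 3 were tested. Fbxl5, the iron-binding subunit of the ligase that degrades the Ireb2 protein, fell from 91.9 to 57.1 CPM in WT and from 96.5 to 51.8 CPM in Yap KO (log2 -0.79 ± 0.13, edgeR adjusted p = 5.55e-04), with a few exon bases opposite another gene. Its ligase partners Skp1 and Cul1 rose, by 0.61 ± 0.12 and 0.85 ± 0.12, Cul1 with exons partly opposite another gene. Fbxl5 reads per Ireb2 read went from 1.41 to 0.890 in WT and from 1.60 to 0.731 in Yap KO. Hamp, the hormone hepcidin that closes ferroportin, had at most 1 read.

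BACH1 is a heme-binding repressor of Hmox1, and NRF2 (Nfe2l2) is an activator of it. Of 11 tested genes of that list 5 rose and 3 fell, against 33.3% and 34.1% of all tested genes, with a median of 0.54. Bach1 itself fell from 209 to 22 reads in WT and from 235 to 26 in Yap KO, a log2 change of -2.90 ± 0.31 (edgeR adjusted p = 3.37e-05), while Nfe2l2 fell by 0.43 (SE 0.14). Srxn1, sulfiredoxin, went from 0 to 36 reads with stimulation in WT and from 1 to 122 in Yap KO (edgeR adjusted p = 1.70e-05 for state). Its genotype coefficient of 1.85 ± 0.44 was not called (edgeR adjusted p = 0.0954). Slc7a11, the cystine importer, went from 5 to 56 reads in WT and from 0 to 46 in Yap KO (edgeR adjusted p = 3.33e-04). Nqo1, another textbook NRF2 target, had 2 to 6 reads in every library and was not tested.

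By the distance of centred log2 levels over the 4 libraries, the genes most like Tfrc among 9183 others averaging 10 CPM or more were Cip2a, Rgs1, Tmem97, Sesn2 and Cdc20, at distances of 0.25 to 0.33. Rgs1, for example, went from 46.9 to 451 CPM in WT and from 34.7 to 681 CPM in Yap KO, and Cdc20 has a few exon bases opposite another gene. Within a distance of 0.5 there were 34 genes for Tfrc and 112 for Hmox1. The genes nearest to Hmox1 were Kif18a, Ak6, Wdr62, Tmem237 and Mpp6, at 0.10 to 0.14, all but Mpp6 with exons partly opposite another gene. With 4 libraries such likeness is a description only.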

How the data were processed

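The authors deposited raw read counts per Ensembl gene identifier, 1 table per library, with summary entries of the kind htseq-count writes. The submitters' processing notes name mm9 as the build. The sources used here give no aligner, annotation or strand setting. The 5 summary entries, which held 60.3 to 64.4% of the counts of a library, were left out. Counts in genes were 35.6 to 39.7% of a library, and reads aligned in more than 1 place were 3.48 to 4.31%. Of 50686 identifiers 50376 matched a symbol, and coordinates are those of GENCODE M21 on GRCm38. The members and lists were chosen with earlier results of these data known.

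Genes were kept with filterByExpr by state (minimum count 10) and scaled by TMM (factors 0.968 to 1.04). The test was the quasi-likelihood F test of edgeR 4.0.16 in R 4.3.3, additive in genotype and state, with Benjamini-Hochberg adjustment at 0.05 (prior degrees of freedom 7.98). SE is the coefficient divided by the root of F. The fit was also run on simulated counts as a check of the code. Far fewer genes changed in them than were called here, so that run gives no assurance about these p-values. Log2 ratios used a prior count of 2, with exact 95% conditional binomial (Clopper-Pearson) intervals. Response differences have normal intervals from counting error. TPM used union exon lengths. Reads may repeat 1 molecule, so intervals and floors cover counting error only.

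All members are named. From each other list the 3 called genes with the largest change were named, except 2 that are not reported here, and others only where the text counts or contrasts them, chosen after their values were seen. Alternatives were DESeq2 1.42.0, other scalings, no filter, state as the only term, each library left out, pseudogene reads added to the parent, no genes opposite another gene, a prior count of 0.5 and, chosen after seeing the data, edgeR's legacy fit, other lengths and other scalings of the response difference.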

Additional observations from a re-analysis of the deposited data

Results flagged for a closer look

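For 3 members the genotype difference had opposite signs in the unstimulated and the stimulated libraries, with both exact 95% counting intervals excluding no difference. With 1 library per group the difference between the states was not tested. For Tfrc the log2 ratio of Yap KO over WT was -0.11 unstimulated and 0.51 stimulated. For Ftl1 it was 0.38 and -0.15, and for Ireb2 it was -0.11 and 0.14.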

How the results depend on the processing

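No further block by replicate number was possible because every title carries the number 1, so such a block has 1 level. With genotype in the fit, the state coefficient already compares the states within each cell source. With state as the only term 3 members were called higher and 3 lower. Members called with state numbered 3 higher under every alternative, and 2 or 3 lower, except 1 lower without genes opposite another gene, where Ftl1 and Slc11a2 are not tested. Ftl1 was also not called with no filter on low counts (log2 -0.46, adjusted p = 0.0687), and Tfrc, Fth1, Slc11a2, Aco1 and Hmox1 kept their calls in each fit that included them. Steap3 and Ireb2 were not called under any alternative, and no member was called by genotype. Over all genes, 5124 were called higher and 5246 lower with state. Without genes opposite another gene, with fewer tested, these were 3233 and 3401, and with 1 library left out 3899 to 4126 and 3517 to 4093. By genotype 129 were called higher and 86 lower. Scaling to total counts gave 56 lower, no filter 23 and 18, and leaving out genes opposite another gene 72 and 47. The causes of the first and second were not tested. No filter moved the median state change of all genes from -0.05 to -0.15, with more low genes in it, and total counts to -0.13. Depth limits Steap3 and Slc40a1.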
